A study of Mus musculus with 2 samples.

Results

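The cytosolic ribosomal protein genes were taken from a comparison of wild-type and Mfsd2a knockout mouse eye cups. A gene was included when a probe set carried its symbol alone and that symbol was Rpl or Rps followed by a digit, Rplp0, Rplp1, Rplp2 or Rpsa. Kinases named Rps6k, the binding protein Rps19bp1 and symbols of pseudogenes were left out. This gave 49 of the 18193 genes with a probe set of their own, 26 of the large ribosomal subunit and 23 of the small one. Of 77 canonical proteins in a list of the ribosome, 43 were among them, and the other 6 members were paralogs such as Rpl22l1.

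The study held 2 arrays. Each read a pool of eye cup RNA from 6 mice of postnatal day 13, mixed in equal amounts, one pool wild-type and one Mfsd2a KO, on an Affymetrix mouse expression array. Eye cups consist of retina, pigment epithelium, choroid and sclera, left once the front of the eye and the optic nerve are cut away. Strain, sex and the deleted part of Mfsd2a, which encodes a lysophosphatidylcholine transporter, are not given in the sources used here.

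The ribosome makes every protein of the cell. Its small subunit reads the messenger RNA and its large subunit joins the amino acids. The proteins of both subunits are needed in matched amounts, and their genes are expressed together and strongly in nearly all tissues. Their messenger RNAs begin with a C followed by a run of pyrimidines (C or T), the TOP sequence (terminal oligopyrimidine), through which the kinase complex mTORC1 and the protein LARP1 control their translation. Photoreceptors, which renew their outer segments daily, have a high demand for protein synthesis.

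The members share features of their promoters, which played no part in choosing them. RefSeq promoter sequences, from 250 bases before to 50 bases after the annotated start (build GRCm38.p6), were found for 43 of the 49 genes, with 51 entries on 15 chromosomes. A run of at least 7 pyrimidines on the sense strand, from 30 bases before to 30 bases after the start, stood in 32 of 51 entries (62.7%), against 33.8% of all 32851 promoters. The Ets family core CCGGAAG, searched on both strands of the whole 300 bases, stood in 21 entries (41.2%) against 8.86%. The Sp1 core GGGCGG was in 52.9% against 35.7%, the YY1 core AAGATGGCG in 5.88% against 1.40% and the TATA box TATAAA in 11.8% against 13.6%, on both strands too. The runs, the Ets core and the Sp1 core were searched independently and may overlap. By subunit, a pyrimidine run was found in 18 of 28 large and 14 of 23 small subunit entries, and the Ets core in 11 and 10.

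The 30 bases around the annotated start are shown for 10 genes from both ends of the order of differences described below. Rpl7a is shown too, as it has the longest run within these 30 bases. A run can be cut off by the edge, as that of Rpl27a may be. Each sequence runs 5′ to 3′ from 15 bases before the start, and capitals mark the run of at least 5 pyrimidines closest to it.
Rplp0 (chr5:115559452-115559481, plus strand): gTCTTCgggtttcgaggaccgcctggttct
Rpl12 (chr2:32961697-32961726, plus strand): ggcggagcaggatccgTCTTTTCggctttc
Rpl6 (chr5:121204486-121204515, plus strand): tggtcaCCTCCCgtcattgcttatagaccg
Rpl35 (chr2:39005117-39005146, minus strand): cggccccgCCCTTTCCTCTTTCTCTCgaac
Rpl27a (chr7:109519180-109519209, plus strand): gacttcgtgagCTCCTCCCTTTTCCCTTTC
Rpl7a (chr2:26910792-26910821, plus strand): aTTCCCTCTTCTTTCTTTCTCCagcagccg
Rps9 (chr7:3704026-3704055, plus strand): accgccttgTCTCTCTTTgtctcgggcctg
Rps27 (chr3:90213634-90213663, minus strand): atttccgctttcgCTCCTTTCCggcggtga
Rps15 (chr10:80292416-80292445, plus strand): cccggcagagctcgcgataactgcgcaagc
Rps3 (chr7:99483695-99483724, minus strand): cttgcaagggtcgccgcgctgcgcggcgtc
Rpsa (chr9:120127751-120127780, plus strand): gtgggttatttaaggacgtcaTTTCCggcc
Annotated starts can differ from those used in the eye. Among printed genes with a high difference between the arrays, the marked runs of Rps9 and Rps27 had 9 bases each. Those of Rplp0, Rpl6 and Rpl12 had 5, 6 and 7. Among printed genes with a low difference, Rpl35 and Rpl27a had longer runs of 18 and 19, and Rpsa had 5. Whether run length goes with the difference was not tested. Rps15, with a high difference, and Rps3, with a low one, had none in the printed window. Low large subunit genes that are not printed varied. Rpl11, Rpl41 and Rpl7l1 had no run there, Rpl39 had a run of 5, Rpl22l1 of 10 and Rpl19 of 5 or 11 by entry. Of the high genes that are not printed, Rpl10a had a run of 7 or none by entry. Rpl22 had a run of 5 or none, and Rps19 of 7 or none.

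All values are intensities, and each difference is the log2 intensity on the array labelled knockout minus that on the wild-type array. A gene with several probe sets is represented by the one with the highest mean intensity. Neither genotype has a second array, so no spread between samples and no test could be had, and every difference is one between 2 pools. Having 2 arrays in all limits the precision throughout. The deleted gene went against its label: Mfsd2a had an intensity of 181 in the wild-type pool and of 244 in the knockout pool, which is therefore called the array labelled knockout here. Where the probe set lies relative to the deleted part was not analysed here.

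Ribosomal protein genes were higher by a small and even amount on the array labelled knockout, a direction that turned when the arrays were scaled to the hybridisation spike-ins (bacterial and phage control RNAs added to the samples). Of 49 members, 46 were measured, which means that they reached the array's median intensity (94.2 in wild type, 93.4 in the other) on at least one array. Their median log2 difference was 0.055, beside 0.014 for all 11568 measured genes. Of the 46, 43 were above 0 (93.5%), against 55.8% of all measured genes. Rpl27a was the only member below 0 (2.17%, against 42.4% of all measured genes), and Rpl39 and Rpl7l1 had the same value on both arrays, as did 206 of the measured genes. With no floor 44 of 49 members were above 0, against 47.3% of 18193 genes. On the spike-in scale the members' median was -0.044 and that of all genes -0.085. There 7 of 46 members (15.2%) were above 0, against 17.5% of all measured genes. The gap between the medians of the members and all genes, 0.041, is fixed under any such shift, but the shares above 0 are not.

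The floor mattered for few members. Rpl12 (92.2 and 108) and Rpl14 (94.1 and 96.4) passed it through the array labelled knockout alone. The 3 members outside it, Rpl39l (34.2 and 28.9), Rpl3l (24.1 and 24.2) and Rps16 (9.49 and 8.77), lay well below it on both arrays. For Rpl12, Rpl14, Rps6 and Rps16 brighter probe sets exist that list the gene together with other symbols, and these were not used for single genes.

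**Figure D1:**
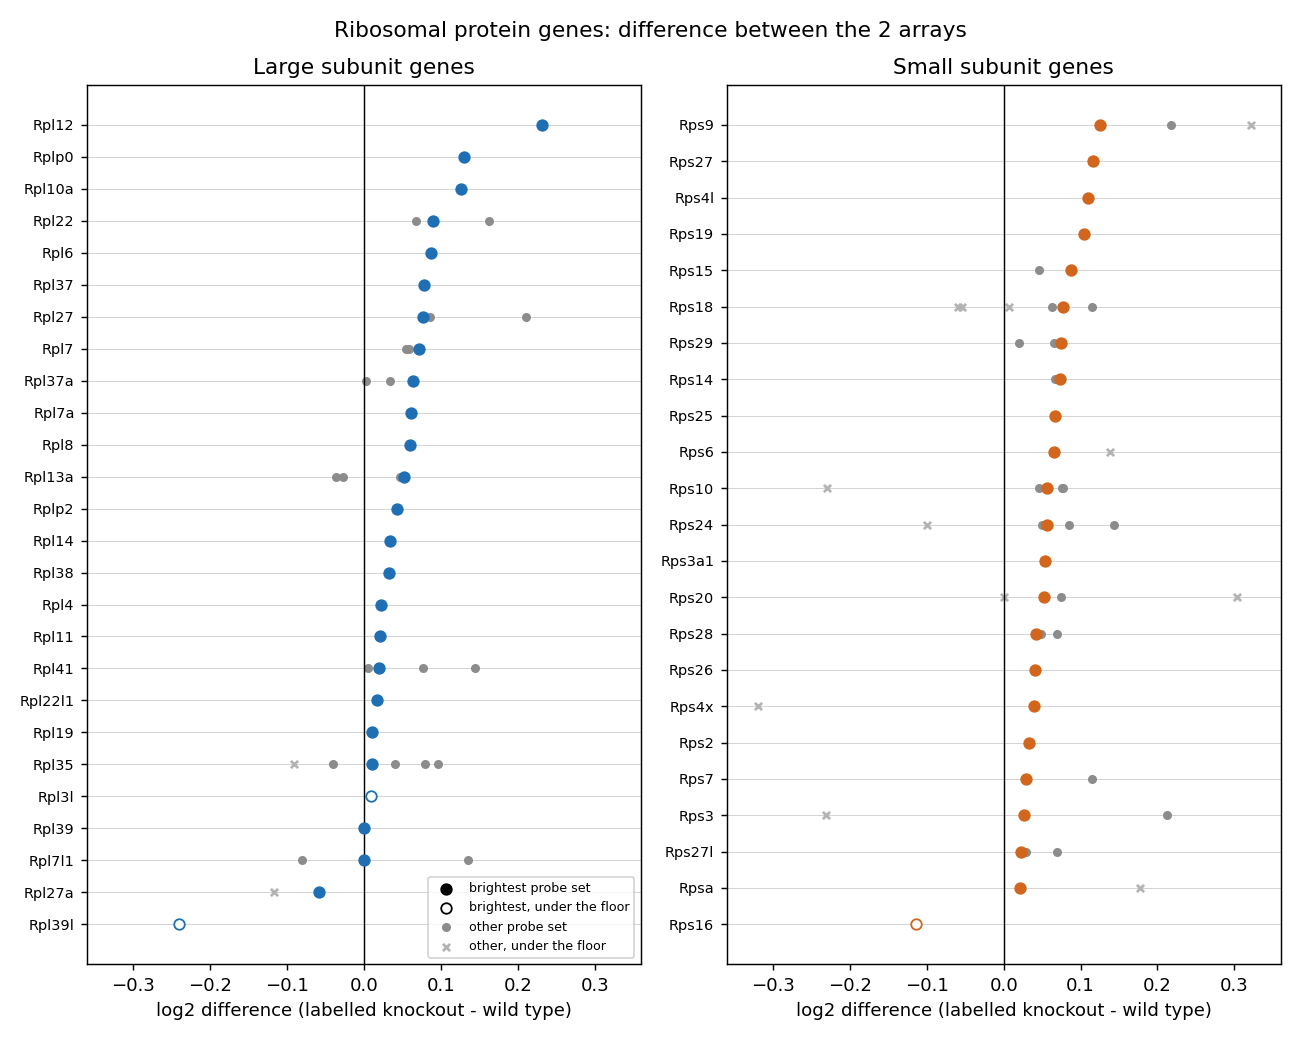
Log2 difference (array labelled knockout minus wild type, x axis) of the 26 large subunit genes (left) and 23 small subunit genes (right), in order of their difference. Large points are the brightest probe set of a gene, open where under the floor, grey points its other probe sets and crosses those under the floor. Among measured genes, 43 of 46 large points lie right of 0, against 55.8% of all measured genes. Once scaled to the hybridisation spike-ins it is 7 of 46, against 17.5%. Crosses scatter to both sides.

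The size of the difference stayed small in every member. Only Rpl12, which passed the floor through the array labelled knockout alone, was at least 1.1-fold higher. This was 1 of 46 (2.17%) against 9.83% of all measured genes, and 0 were at least 1.1-fold lower, against 6.6%. No member reached 1.2-fold, where 1.79% of measured genes were higher and 1.17% lower. The interquartile range of the members ran from 0.026 to 0.077, while that of all measured genes lay between -0.046 and 0.073. The SD across members was 0.046 and that across all measured genes 0.11.

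Signal strength bears on such a comparison, because bright probe sets vary less. At a floor at the 90th percentile of each array (903 and 917), all 37 remaining members were above 0, against 56.9% of 2966 genes, with an SD across members of 0.034 beside 0.090. At the 99th percentile (4676 and 4700), a floor chosen after the values were seen, all 31 members were above 0, against 54% of 248 genes. The 217 other genes at that floor had a median of -0.0030, and 103 of them (47.5%) were above 0. In those brightest genes the members' median was 0.054. Within the members the difference had little relation to signal, with a Spearman correlation across genes of -0.045 over 46 measured genes that share both arrays.

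**Figure D2:**
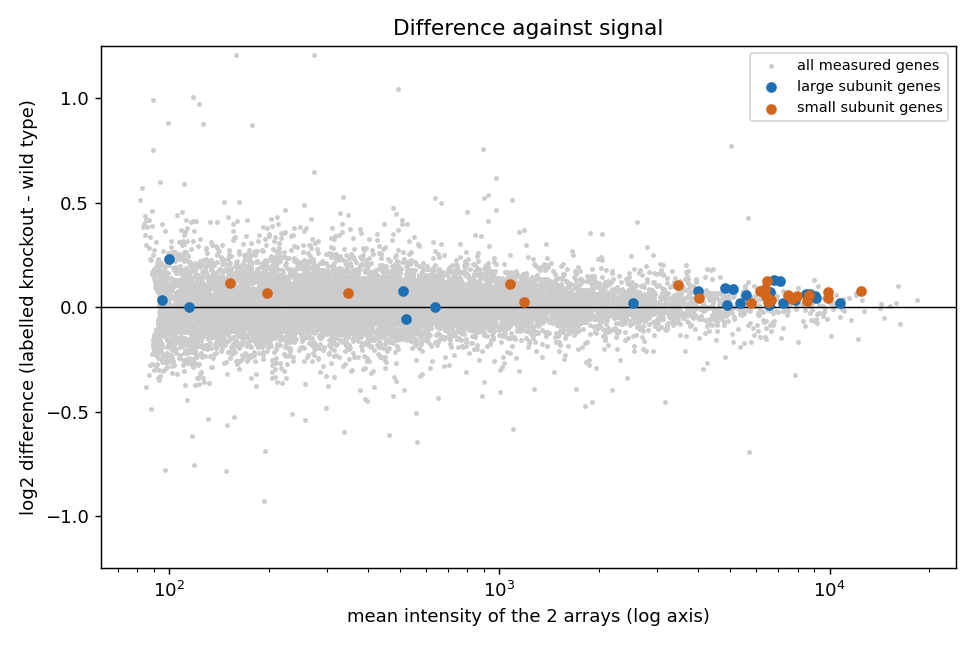
Log2 difference (array labelled knockout minus wild type, y axis) against the mean intensity of both arrays (x axis, log scale) for 11568 measured genes (grey) and the measured large (blue) and small (orange) subunit genes. The 31 members at the 99th percentile floor form a narrow band above 0, a position that falls below 0 for the median when the hybridisation spike-ins set the scale.

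The probe sets of a gene give a measure of the technical error between probe sets read on the same arrays. It holds no variation between arrays, labelling reactions or pools, so it is not the error of the comparison. Between them, 20 members had 62 probe sets above the floor, whose differences had a pooled SD within genes of 0.051. For all 5201 genes with several such probe sets it was 0.089. The members' median of 0.055 is about as large as this SD, so a single probe set carries an error of the same size as the shift. The probe sets of a member shared a sign in 17 of the 20 (85%), whereas this was so in 50.6% of the 5201 genes. Rpl13a, Rpl35 and Rpl7l1 were the exceptions. Among probe sets at the 90th percentile floor, where signals are more alike, it was so in 16 of 18 members (88.9%) and in 69.7% of 812 genes, with SDs within genes of 0.038 and 0.053.

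Among all 105 member probe sets, the share above 0 differed with brightness. Of 70 with a mean intensity of at least 1000, 68 were above 0, against 58.5% of all single-symbol probe sets of that brightness, with an interquartile range from 0.035 to 0.077. Of 18 between the floor and 1000, 13 were above 0, against 55.3%. Of 17 under the floor, 6 were above 0, against 36.7%, and 10 below, and they ran from -0.32 to 0.32. By design type above the floor, 36 of 38 sets with names ending in _x_at (possible cross-hybridisation), 26 of 27 ending in _a_at and 16 of 20 ending in _at were above 0, with medians of 0.053, 0.059 and 0.072. Over all single-symbol sets above the floor the shares above 0 for these types were 58.3%, 58.2% and 54.7%.

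The large subunit had 24 measured genes, with 21 above 0 and a median of 0.047. In the small subunit all 22 measured genes were above 0, with a median of 0.056. Of all measured genes, 55.8% were above 0. Scaled to the hybridisation spike-ins both medians were below 0, at -0.052 and -0.043. On that scale 7 of the 46 members of both subunits were above 0, against 17.5% of all measured genes. The subunit medians differed by -0.0093 (large minus small). This gap was -0.00082 without the paralogs and 0.0015 at the 90th percentile floor, so its direction was not stable. Large subunit genes were spread more widely, from -0.059 to 0.23 with an SD of 0.057, than small subunit genes, from 0.021 to 0.12 with an SD of 0.031. At the 90th percentile floor the SDs were 0.037 and 0.031, since the widest large subunit values came from dim probe sets.

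In the large subunit, Rplp0 had the highest value apart from Rpl12, and both belong to the stalk that recruits translation factors. Rplp0, the stalk base protein and a common reference gene for quantitative PCR, had intensities of 6483 in wild type and 7095 in the knockout-labelled pool (log2 difference 0.13). Rplp2, one of its acidic partners, read 8940 and 9207, a difference of 0.042. Rpl12, which binds beside Rplp0, differed by 0.23, but at the intensity of the floor, which it passed through the array labelled knockout alone. The stalk had 3 measured genes with 1 probe set each. Apart from Rpl12, Rplp0 stood at the top and Rplp2 near the middle of the large subunit.

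Beyond the stalk, Rpl10a, a protein of the L1 stalk by the exit site of transfer RNA, read 6759 and 7377, with a difference of 0.13. Rpl22, an RNA-binding protein, read 4684 and 4984 (0.090), and its 3 probe sets ran from 0.067 to 0.16. Rpl6 read 4940 and 5248 (0.087). These genes and Rplp0 were the highest of the bright large subunit genes, and their values are all above the SD between probe sets. That SD holds no variation between arrays or pools. Whether these values exceed the error of the comparison could therefore not be tested.

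At the low end of the large subunit, Rpl27a read 534 and 512, a difference of -0.059, and its other probe set lay under the floor. Rpl39, a small protein of the exit tunnel, read 115 on both arrays. Rpl35, which sits at the tunnel exit, read 4874 and 4907 (0.0098), although 3 of its other sets above the floor were higher and its 5 sets there ran from -0.040 to 0.096. Rpl19 read 6534 and 6583 (0.011). Rpl41, the shortest ribosomal protein, read 10660 and 10809 (0.020), while its 4 sets ran from 0.0055 to 0.14. Rpl11, which with Rpl5 and the 5S RNA forms a particle that can bind the p53 regulator MDM2, read 5322 and 5399 (0.021).

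Several of these low values came from single probe sets or from genes whose sets disagreed, and each lay within 1 SD between probe sets (0.051) of 0, apart from Rpl27a. As that SD leaves out variation between arrays and pools, it does not set Rpl27a apart from the error of the comparison. The middle of the large subunit was filled by bright genes with similar values. Rpl7 read 6454 and 6783 (0.072), with 3 probe sets between 0.055 and 0.072. Rpl37a read 8551 and 8934 (0.063), Rpl7a 8323 and 8686 (0.062) and Rpl8, near the peptidyl transferase centre, 5448 and 5677 (0.059). Rpl13a, a reference gene and part of an interferon-responsive brake on translation, read 8893 and 9216 (0.052), but its 2 dimmer probe sets differed by -0.027 and -0.036. Its sets thus lay on both sides of 0.

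Further large subunit genes with 1 or several probe sets lay on either side of the median. Rpl27 read 3900 and 4114 (0.077), and its 3 sets ran from 0.077 to 0.21. Rpl37 read 497 and 524 (0.078). Below the subunit's median, Rpl38, known for its part in the translation of Hox messengers, read 7793 and 7973 (0.033), and Rpl4, whose long loop lines the exit tunnel, read 7165 and 7275 (0.022). All 4 were above 0 as deposited, and all 4 would be below 0 on the hybridisation spike-in scale.

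In the small subunit, Rps9 was highest. This protein of the body near the messenger entry channel read 6175 and 6732, a difference of 0.12, and its second set above the floor differed by 0.22. Rps27 read 147 and 159 (0.12) from a dim set. Rps19, whose human counterpart is often mutated in Diamond-Blackfan anaemia, read 3342 and 3592 (0.10). Rps15, a protein of the head, read 6165 and 6551 (0.087), with 0.046 in its other set.

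The lowest small subunit genes were still above 0 before any scaling to spike-ins. Rpsa, which also occurs as a laminin receptor, read 5735 and 5818 (0.021). Rps3, at the messenger entry and also a DNA repair factor, read 6430 and 6545 (0.026), but its second set above the floor differed by 0.21 and another, under the floor, by -0.23. Rps7 read 8446 and 8615 (0.028), with 0.11 in its other set. Rps6, the substrate of the S6 kinases, was not among the lowest. It read 193 and 202 (0.065) in its set above the floor, above the subunit's median of 0.056.

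By position in the small subunit, 9 measured genes of the head had a median of 0.066 and 11 of the body 0.054. All of both groups were above 0 as deposited, against 55.8% of all measured genes. Rps29 (12136 and 12785, 0.075), Rps18 (5972 and 6297, 0.077) and Rps14 (9627 and 10128, 0.073) stood in the upper part of the order. Rps10 read 7334 and 7626 (0.056), and its 5 sets above the floor ran only from 0.045 to 0.078. Rps24 read 8521 and 8859 (0.056), with 5 sets between 0.049 and 0.14. These genes have the most probe sets above the floor in the small subunit, and none of those sets was below 0.

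The rest of the small subunit lay close together. Rps25, needed by some viral and cellular internal ribosome entry sites, read 341 and 357 (0.066), and Rps20 read 6300 and 6532 (0.052). Rps3a1 read 7798 and 8095 (0.054), Rps28 read 9720 and 10008 (0.042), with 3 sets up to 0.070, and Rps26 read 3971 and 4086 (0.041). Rps4x, the X-linked partner of Rps4l, read 7596 and 7803 (0.039), and Rps2 read 6571 and 6721 (0.033). All 7 were above 0 as deposited, and they spread over less than the SD between probe sets of one gene.

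Proteins shared with bacteria had medians of 0.055 over 10 large and 0.073 over 9 small subunit genes. Proteins found only in archaea and eukaryotes had medians of 0.052 over 12 and 0.056 over 11.

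Paralogs, copies that can take the place of a canonical protein, made up 6 of the 49 members, and 4 of them were measured. Rpl22l1, the relative of Rpl22, read 2529 and 2560 (0.018). Rps27l, a p53-responsive relative of Rps27, read 1178 and 1197 (0.023), and its 3 sets ran from 0.023 to 0.069. Rps4l, a relative of the X-linked Rps4x, read 1033 and 1115 (0.11).

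Rpl7l1 read 636 on both arrays, and its other sets differed by 0.14 and -0.081. Beside their namesakes, Rpl22l1, Rpl7l1 and Rps27l were lower in their difference by 0.072, 0.072 and 0.093, while Rps4l exceeded Rps4x (0.11 and 0.039). The muscle paralog Rpl3l and the germ-cell paralog Rpl39l were under the floor on both arrays. Skeletal muscle markers, by comparison, were measured for 10 of 15 genes.

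Ribosomal proteins that carry other symbols, and probe sets that match several genes, lie outside the members. Fau, a fusion that yields a small subunit protein, read 6230 and 6417 (0.043). Of 110 probe sets that list several symbols with a ribosomal protein gene among them, 98 reached the floor. Of these, 87 were above 0, against 55.9% of 20105 single-symbol probe sets above the floor. The 98 had a median of 0.051, close to that of the members. These sets often match pseudogenes too and were not assigned to a gene. Scaling to the hybridisation spike-ins lowers each value given here by 0.099, which takes that median and Fau below 0.

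Other genes of the translation machinery were set beside the ribosomal proteins. Of all measured genes, 55.8% were above 0, which is the share to read each count against. Of 17 measured genes from a list of other TOP messengers, mainly translation factors, 15 were above 0 as deposited. Their median was 0.065 (below 0 on the hybridisation spike-in scale, like each group median in these paragraphs). Eif3f, a subunit of initiation factor 3, read 4423 and 4885 (0.14), and the histone chaperone Nap1l1 read 3761 and 4090 (0.12). Initiation factors, a list that shares 7 genes with the TOP list, had 25 of 32 above 0 and a median of 0.037. The lowest of them was Eif2s3x, a subunit of initiation factor 2, at 2659 and 2416 (-0.14). Elongation and release factors had 8 of 10 above 0 and a median of 0.034, with Eef1b2 at 0.11 and the recycling factor Abce1 at 0.11.

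Ribosome biogenesis genes process ribosomal RNA and build the subunits in the nucleolus. Of these, 35 of 49 were above 0, against 55.8% of all measured genes, with a median of 0.048. They were more variable than the ribosomal proteins, with an SD of 0.075, and 5 of the 49 were at least 1.1-fold higher, near the 9.83% of all measured genes. Ddx21, a nucleolar helicase, read 246 and 286 (0.22), and Nle1, an assembly factor of the large subunit, 134 and 152 (0.18). Components and targets of mTORC1 with the S6 kinases and Myc genes were split evenly, 8 above 0 and 8 below, with a median of 0.0036. Rps6kb2, an S6 kinase, read 194 and 227 (0.22), and Mycl, a neighbour of Mfsd2a on its chromosome, 96.5 and 223 (1.21).

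Other large complexes of the cell were nearer to 0. Mitochondrial ribosomal proteins had 48 of 76 above 0, against 55.8% of all measured genes, and a median of 0.026. Proteasome subunits had 20 of 37 above 0, near that share, and a median of 0.0037. Respiratory chain subunits had 32 of 78 above 0 and a median of -0.0075. No test of the difference between these groups and the ribosomal proteins was possible with 2 pools.

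**Figure D3:**
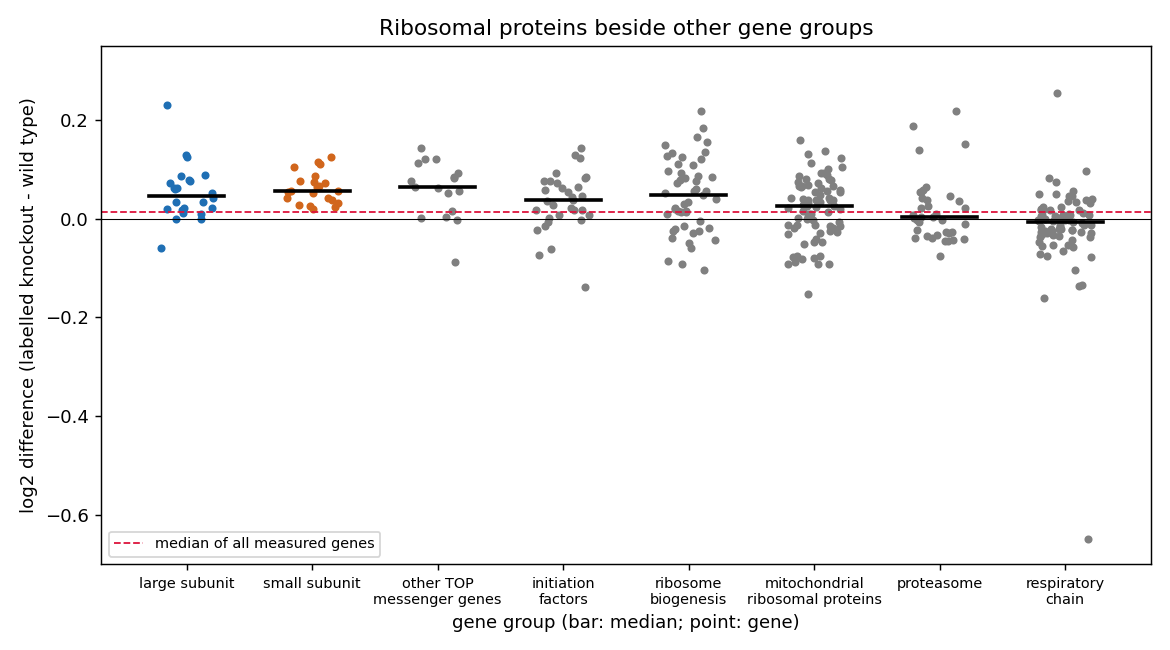
Log2 difference (array labelled knockout minus wild type, y axis) of measured genes in 8 groups, each point a gene and each bar the group's median; the dashed line is the median of all measured genes, 0.014. The subunit medians of 0.047 and 0.056 lie above the line, as do those of other TOP messengers (0.065) and ribosome biogenesis (0.048), while all group medians are below 0 after scaling to the hybridisation spike-ins.

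Technical measures and markers of other cell types also differed between the pools. The hybridisation spike-ins, read by 18 probe sets, had a median of 0.099 with 17 of them above 0. The labelling spike-ins, added before labelling and read by 24 probe sets, had a median of 0.046. Of these 24, 15 were above 0, and they ran from -0.18 to 0.33. As a check of RNA integrity, the signal at the 3' end over that at the 5' end was 1.49 (wild type) and 1.44 (labelled knockout) for beta-actin, and 0.973 and 0.942 for Gapdh. Rod and pigment epithelium genes, which define the labelled tissue, were measured in 9 of 11 and 11 of 12 listed cases.

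Several marker lists shifted by more than the ribosomal proteins. Their counts above 0 stand beside 55.8% of all measured genes. Microglia and macrophage genes had 11 of 13 measured above 0, a median of 0.34, and a summed intensity of 4090 and 4849. Lens genes had 10 of 13 above 0, a median of 0.21, and sums of 3978 and 4478. Rod genes had 2 of 9 above 0, a median of -0.027, and sums of 84560 and 83167, and pigment epithelium genes 1 of 11, a median of -0.15, and sums of 51103 and 47500. Cornea and conjunctiva genes (1 of 10 above 0, median -0.32, sums of 11501 and 10995) and skeletal muscle genes (3 of 10, -0.17, 4668 and 4325) were lower. Genes of dividing cells had 3 of 6 above 0 and a median of 0.0064, with sums of 3712 and 3692, and the 1 measured erythroid gene, Alas2, differed by -0.24, with sums of 282 and 265 over 4 genes. The part of these shifts in the values of the ribosomal protein genes was not tested. In bulk tissue a change in the number of cells of a type and a change in RNA per cell cannot be told apart.

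**Figure D4:**
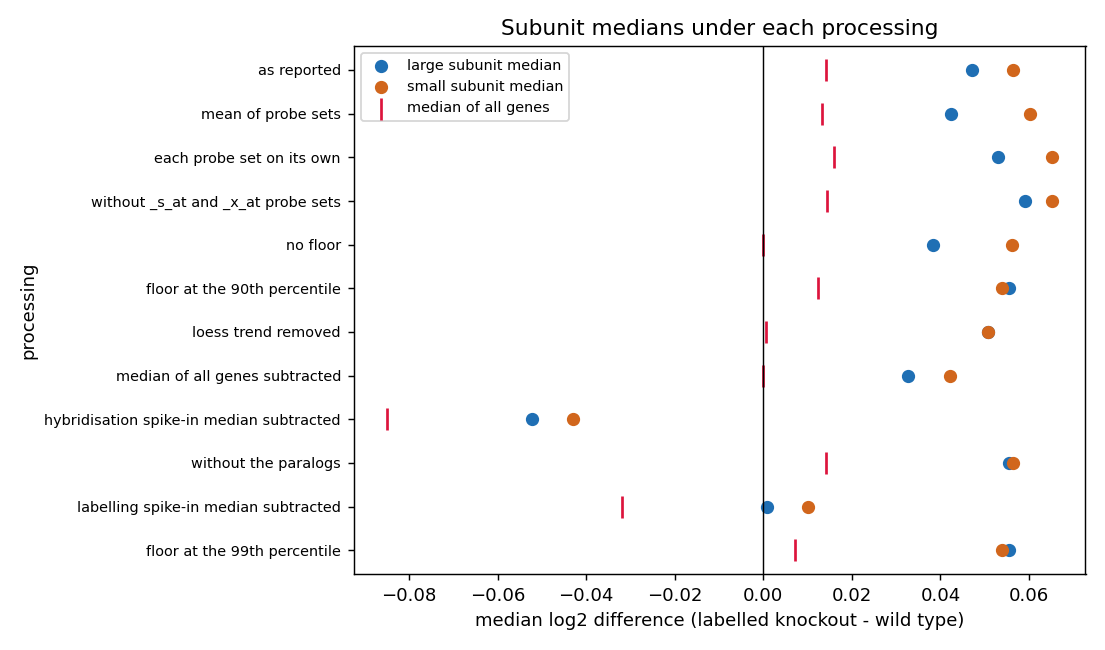
Median log2 difference (array labelled knockout minus wild type, x axis) of large (blue) and small (orange) subunit genes and of all genes (red bar) under each processing (y axis). Both subunit medians lie right of the bar of all genes in every row, and both fall left of 0 when the hybridisation spike-in median is subtracted.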

How the data were processed

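Total RNA of 2 pools was read on 1 array each. The authors deposited linear intensities, made with Partek 6.6 and RMA per the submitters' processing notes, with order and settings not given in the sources used here. RMA equalises the arrays' distributions, which removes any overall difference, and shrinks dim differences. Of 45101 probe sets, 64 were controls, 9211 (51 of the controls among them) had no gene symbol in the platform annotation, 932 had several, and 34945 other than controls had 1. All 49 members had an Entrez identifier in RefSeq GRCm38.p6, which changed 0 symbols. Log2 differences, medians and counts at fixed sizes (1.1-fold and 1.2-fold) were computed with Python 3.11.15, pandas 2.3.3 and statsmodels 0.14.6, and tested on simulated data. The loess trend used a span of 0.3 and 3 iterations.

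Members and gene lists were chosen with earlier results of these data known. Named were, per subunit, the 5 members with the highest and the 3 with the lowest difference, members below 0, the stalk, the 5S particle, paralogs, the 3 with the widest range between probe sets, and 2 genes per other list. The other members were described after their values were seen. Mitochondrial ribosomal, proteasome and respiratory chain genes were taken by symbol.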

Additional observations from a re-analysis of the deposited data

Results flagged for a closer look

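Outside the measurement of single genes, 110 probe sets list several symbols with a ribosomal protein gene among them, and 98 of these reached the floor, the array's median intensity, on at least one array. Of the 98, 3 were at least 1.1-fold higher on the array labelled knockout, beside 9.83% of all measured genes. At least 1.1-fold lower was 1, beside 6.6% (272 in wild type and 243 on the other array, a log2 difference of -0.17). The log2 differences of the 3 higher probe sets were 0.17 (2852 in wild type and 3208 on the other array), 0.152 (229 and 255) and 0.139 (154 and 169). Under the floor, 2 of these sets were at least 1.1-fold higher (0.58, at 17.0 and 25.5, and 0.15, at 28.0 and 31.1) and 2 at least 1.1-fold lower. The share of all probe sets under the floor at this size is not given. No gene was assigned to the sets with several symbols.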

How the results depend on the processing

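No paired analysis was possible because the groups share fewer than 2 replicate numbers. A value counted as stable when it kept its sign and stayed within 1.5 times. The medians of all members, large and small subunit genes were stable under 9 of 11 alternatives. With the hybridisation spike-in median subtracted they were -0.044, -0.052 and -0.043, and with the labelling spike-in median subtracted, an alternative added after the data were seen, 0.0089, 0.00085 and 0.010. With these, 7 and 26 of 46 members were above 0, against 17.5% and 35.3% of all measured genes. With each probe set on its own it was 81 of 88, against 55.9% of 20105 probe sets. The gap between the subunits, -0.0093, was -0.018 with the mean of probe sets, -0.0060 without _s_at and _x_at sets, -0.018 with no floor, -5.3e-05 with the loess trend removed and -0.00082 without paralogs. It was 0.0015 at both the 90th and the 99th percentile floor. The count of members at least 1.1-fold higher was 1 of 46, against 9.83% of all measured genes. It became 2 of 45 with the mean of probe sets and 7 of 88 with each probe set. It was 3 of 39 without _s_at and _x_at sets, and 0 at both higher floors and on the hybridisation spike-in scale. At the 90th percentile floor 151 of all 2966 genes were that much higher, and at the 99th 4 of the 217 genes that are not members. For the other settings the share of all genes is not given, so their counts are not a result about the members. The cause of the changes between settings was not tested, except that a higher floor leaves fewer genes. Of 18 named measured members with a difference other than 0, 10 changed sign on the hybridisation and 7 on the labelling spike-in scale.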
